A study of Mus musculus with 16 samples.

Results

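The genotype by diet interaction asks whether the ileum of mice without Tas1r3 answered a Western diet (WD) as the ileum of wild-type mice did. It was computed for each gene as the WD minus normal diet (ND) difference in Tas1r3-/- mice less the same difference in Tas1r3+/+ mice, so that a positive value means a higher response to WD in Tas1r3-/- mice. All 4 groups enter, with 14 of the 16 deposited columns, which give 13 libraries. In Tas1r3-/- mice on ND, both female columns can be written as weighted averages of the 2 male columns, with 17 and 18 transcripts as exceptions, and neither was used. In Tas1r3-/- mice on WD, the 2 female columns depend on each other in 99.9% of 53522 transcripts, and their mean counts as 1 library.

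The mice were of the C57BL/6 strain and, by the study's methods, a few weeks old when assigned to a diet. The WD was a high-fat diet (60%) with a sucrose solution (30%) to drink, the ND was given with plain water, and both lasted 10 weeks. The libraries used were 4 of Tas1r3+/+ on ND (2 males, 2 females), 2 of Tas1r3-/- on ND (2 males), 4 of Tas1r3+/+ on WD (2 males, 2 females) and 3 of Tas1r3-/- on WD (2 males and the female mean). The knockout is a germline Tas1r3 allele backcrossed to C57BL/6 and compared with littermates, so every cell type lacks the gene. RNA came from whole terminal ileum, and fewer cells of a type and less RNA per cell cannot be told apart. Each labelled sample was taken as 1 mouse.

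TAS1R3 is a subunit shared by the sweet and umami taste receptors, which signal through a G protein and the channel TRPM5. In the gut it is known from enteroendocrine and tuft cells, rare epithelial cells that sense luminal contents. A diet rich in fat is known to lower the transcription of the enzymes that make fatty acids from sugar, which is controlled by the factors SREBP1 and ChREBP.

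Levels are given as scaled RPKM, that is reads per kilobase of transcript and per library total, summed per gene and divided by a library factor. ND libraries summed to 817011 to 819916 before scaling. WD columns summed to 542371 to 607087 in Tas1r3+/+ and to 615419 to 685274 in Tas1r3-/- mice. Diet and whatever set these totals cannot be told apart. A shift shared by both genotypes cancels in the interaction, but the WD totals did not overlap between genotypes. Scaling divides out a difference that is uniform over genes, while one confined to some genes stays. The part of such a difference in the interactions was not tested. Of the values of these libraries, 169 in 70 genes carry more than 6 significant digits, 0.0219% of all values, and 153 of them are in WD libraries. These are called extended values here, and genes with them are marked throughout. Summed enterocyte markers ranged from 1461 in a WD-fed Tas1r3-/- male to 17586 in a WD-fed Tas1r3+/+ female, and smooth muscle markers from 1240 to 6349, with overlap between all groups.

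Tas1r3 itself was at 1.56, 1.63, 2.09 and 1.65 scaled RPKM in ND-fed and at 6.65, 5.08, 4.33 and 6.08 in WD-fed Tas1r3+/+ mice. In the 5 Tas1r3-/- libraries it did not exceed 0.00532. The level of the targeted gene thus fits the labelled genotype in all 13 libraries, and the interaction of Tas1r3 (-1.41 on the log2 scale) only restates the knockout. The gene holds 3 extended values.

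Among 19042 genes tested with limma, 0 (0%) passed the interaction test at the thresholds of the study, 2-fold and a p of 0.01 after Benjamini-Hochberg adjustment, and 0 passed at 0.05. At an unadjusted limma p under 0.01 and 2-fold, 29 genes had a positive interaction (0.152% of the genes tested) and 30 a negative one (0.158%). At an unadjusted p under 0.05 alone, 272 genes were counted, which is 1.43%. That is below the share expected at this limit if no gene differed. The genes share libraries and are not independent, and whether the test is conservative here was not tested. The count therefore neither shows an excess over chance nor excludes one. The 95% interval of the interaction, before adjustment, had a median half-width of 0.991 on the log2 scale. For a typical gene taken alone, differences in response below about 2-fold were thus not resolved. The adjusted test needed larger ones, and even the interaction of Il18, -2.71, did not pass it. Single genes below are therefore described with their intervals, and none of their interactions passed the adjusted threshold.

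The diet responses themselves were called more often in Tas1r3+/+ mice. There, 1 gene passed an adjusted p under 0.01 with 2-fold (0.00525%) and 18 passed at 0.05 (0.0945%), against 0 (0%) and 1 (0.00525%) in Tas1r3-/- mice. At an unadjusted p under 0.01 and 2-fold, 140 genes rose (0.735%) and 128 fell (0.672%) in Tas1r3+/+ mice, and 44 rose (0.231%) and 46 fell (0.242%) in Tas1r3-/- mice. At p under 0.05 the shares were 15.5% and 5.49%. The Tas1r3-/- contrast rests on 5 libraries and the Tas1r3+/+ contrast on 8, with median standard errors of 0.361 and 0.28, so these counts do not compare the sizes of the responses.

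To compare sizes, the 268 genes that passed the unadjusted rule in Tas1r3+/+ mice were read in Tas1r3-/- mice. Their libraries do not enter the Tas1r3+/+ change, but they share the filter, the scaling and the estimate of spread, so they had some part in the choice. Genes at a limma adjusted p under 0.05 and 2-fold in Tas1r3+/+ mice numbered 18 with all libraries, 1 without ND-fed Tas1r3-/- male 1, ND-fed Tas1r3-/- male 2 or WD-fed Tas1r3-/- male 2, and 40 without the WD-fed Tas1r3-/- female mean. A response was termed kept where the change in Tas1r3-/- mice was at least 0.5 of that in Tas1r3+/+ mice, reversed where it was at most -0.5 of it, and blunted in between. By this measure 149 were kept (55.6%, Wilson 95% interval 49.6 to 61.4, covering counting error over genes that are not independent), 115 were blunted and 4 reversed. Choosing genes by a large change in Tas1r3+/+ mice tends to overstate that change, which raises the share called blunted. Among the 18 genes chosen at an adjusted p under 0.05, 88.9% were kept. Of the 268, 223 genes (83.2%) had a change of the same sign in both genotypes, beside 69.8% over all genes tested. Across all genes the responses of the genotypes had a Pearson r of 0.45 and a Spearman rho of 0.50, over genes that share libraries and scaling.

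The kept genes had a median change of 1.21 (log2, in the direction of Tas1r3+/+) against 0.971 in Tas1r3-/- mice, and 90 of the 149 also reached p under 0.05 in Tas1r3-/- mice. The blunted genes had medians of 1.23 and 0.163, a gap that the class limits set in part. Of the 115 blunted genes, 46 had an interaction at p under 0.05. The other 69 fell below the limit without a difference that the test could resolve. Because the same Tas1r3+/+ values chose the genes and enter the interaction, these p-values are given as description.

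The classes held different shares of genes with extended values. Of the 17 chosen genes with such values, 0 were kept, 14 were blunted and 3 reversed. Of the 251 chosen genes without them, 149 were kept (59.4%), 101 blunted and 1 reversed.

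**Figure D1:**
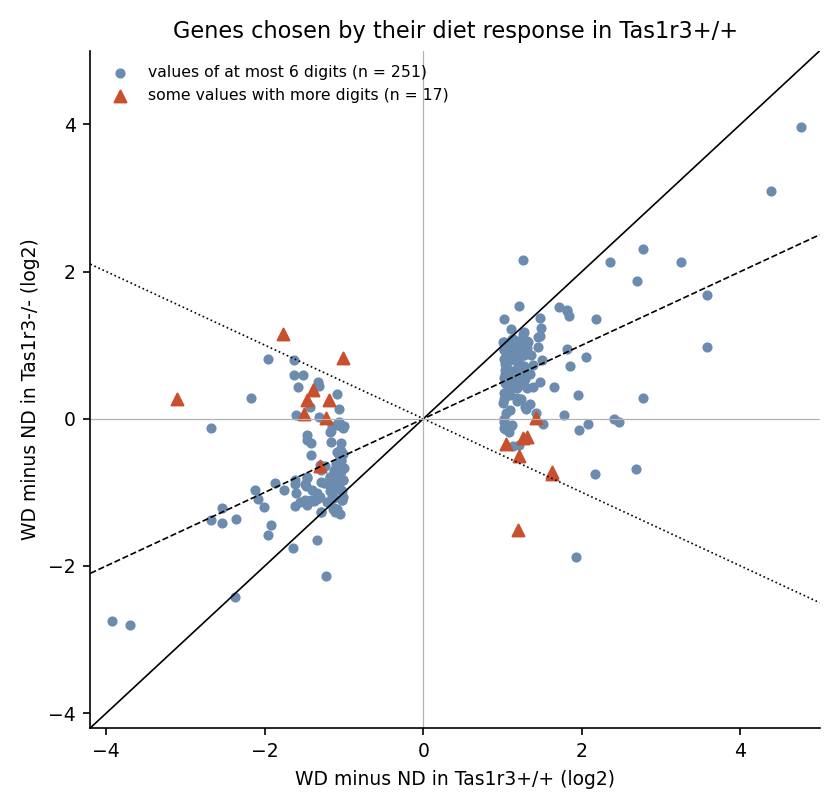
Change from ND to WD (log2) in Tas1r3+/+ mice, horizontal axis, and in Tas1r3-/- mice, vertical axis, for the 268 genes chosen in Tas1r3+/+ mice; the solid line marks equal changes, and the dashed and dotted lines mark 0.5 and -0.5 of the Tas1r3+/+ change. None of the 17 genes with extended values (triangles) reaches the dashed line, while 149 of the 251 others lie at or beyond it.

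Read the other way, the 90 genes chosen in Tas1r3-/- mice were kept in Tas1r3+/+ mice in 65 cases (72.2%), blunted in 23 and reversed in 2, with the same sign in 79. The 2 reversed genes were Il18 and Tjp1, both with extended values, and they were named after their values were seen. Without extended values, 65 of 87 were kept and 0 reversed.

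Genes with the largest changes in Tas1r3-/- mice mostly had values of the same sign in Tas1r3+/+ mice. Pimreg, a mitotic regulator, was at 4.31 and 3.38 on ND and at 0.516, 1.51 and 1.46 on WD in Tas1r3-/- mice, and fell by 1.44 against a value of -0.45 in Tas1r3+/+ mice. Its ND levels in Tas1r3+/+ mice, 1.52 to 1.96, lay below both ND-fed Tas1r3-/- libraries.

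Fatty acid synthesis had a negative median in both genotypes. Of 14 genes of this list, 13 had a lower value on WD in Tas1r3+/+ mice and 6 passed the unadjusted rule, while in Tas1r3-/- mice 11 had a lower value and 0 passed. The median change was -0.78 in Tas1r3+/+ and -0.57 in Tas1r3-/- mice, where the medians of all genes were 0.02 and 0.00372. Fasn, which encodes fatty acid synthase, was at 81.2, 199.2, 309.9 and 242.4 in ND-fed and at 36.0, 56.0, 34.9 and 23.7 scaled RPKM in WD-fed Tas1r3+/+ mice. Fasn in Tas1r3-/- mice was at 104.1 and 196.2 on ND and at 44.0, 47.6 and 81.3 on WD. The diets did not overlap in either genotype, and the changes were -2.36 ± 0.40 (SE) and -1.36 ± 0.52 on the log2 scale. The interaction of Fasn was 1.00, with a 95% interval from -0.43 to 2.43, so a response of a different size in Tas1r3-/- mice was neither shown nor excluded by the interval.

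Thrsp, a regulator of lipogenesis, changed by -3.93 in Tas1r3+/+ mice and had a value of -2.75 in Tas1r3-/- mice, with no overlap of diets in either. Its levels on ND ranged from 10.5 to 120.1 in Tas1r3+/+ mice and were 24.4 and 75.1 in Tas1r3-/- mice, and on WD they ranged from 1.67 to 6.62 and from 1.79 to 22.4. Acly, which makes the cytosolic acetyl-CoA used for lipid synthesis, changed by -1.11 in Tas1r3+/+ mice against -0.96, and Acaca, which makes malonyl-CoA, by -1.06 against -0.68. The intervals of their interactions were -0.81 to 1.10 and -0.45 to 1.20. Sp9, a zinc-finger transcription factor, fell by 2.54 and had -1.41 in Tas1r3-/- mice.

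Scd1 and Me1 of this list carried extended values, and both were blunted, Me1 (-1.30 and -0.65) only just below the limit for kept. Scd1 encodes stearoyl-CoA desaturase, which makes monounsaturated fatty acids. It was at 25.9, 161.4, 143.5 and 135.6 in ND-fed and at 13.2, 5.43, 18.5 and 9.51 in WD-fed Tas1r3+/+ mice, but at 148.9, 59.5 and 129.8 in WD-fed against 51.0 and 148.9 in ND-fed Tas1r3-/- mice. The genotypes did not overlap on WD, and the interaction was 3.37 (95% interval 1.28 to 5.45, limma p = 0.00409, exact permutation p = 0.0514). Its 1 extended value is in a WD-fed Tas1r3-/- male. Scd2, another desaturase without such values, had -0.92 and -0.84, and Scd3 had -1.48 in Tas1r3+/+ and -0.92 in Tas1r3-/- mice.

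Fat-cell transcripts also had lower values on WD, in 7 of 8 adipocyte markers in each genotype. Their median changes were -1.48 in Tas1r3+/+ and -0.47 in Tas1r3-/- mice. Of their interactions 7 of 8 were positive, with a median of 0.84, and 0 passed the rule. Plin1, the coat protein of fat-cell lipid droplets, fell by 2.67 in Tas1r3+/+ mice and had -1.37 in Tas1r3-/- mice, and Mrap, a melanocortin receptor partner found in fat and adrenal cells, fell by 2.08 and had -1.10. Summed adipocyte markers ranged from 36.2 to 262 in ND-fed and 32.9 to 167 in WD-fed Tas1r3+/+ mice, and from 116 to 180 and 42.5 to 257 in Tas1r3-/- mice. The overlap of diets rested on ND-fed Tas1r3+/+ male 1 (36.2, others 213 to 262) and on the WD-fed Tas1r3-/- female mean (257, others 113 and 42.5). Fasn, Thrsp and Acly were lowest of the ND-fed Tas1r3+/+ libraries in that male. Fasn and Thrsp, but not Acly, were highest of the WD-fed Tas1r3-/- libraries in that female mean. The part of fat tissue in the lipogenic values was not tested. Cholesterol synthesis had a median of -0.56 in Tas1r3+/+ and -0.16 in Tas1r3-/- mice, 24 of 24 genes had a lower value on WD in Tas1r3+/+ mice, and 0 of 24 passed the interaction rule in either direction. All 24 interactions were positive, with a median of 0.29.

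Transcripts of the T cell receptor beta chain rose in both genotypes. Trbc2, a constant segment of the T cell receptor beta chain, was at 4.22, 4.38, 7.69 and 7.15 on ND and at 30.0, 20.1, 68.1 and 59.3 on WD in Tas1r3+/+ mice. Its Tas1r3-/- levels were 6.22 and 7.94 on ND and 21.4, 28.4 and 33.0 on WD. The diets did not overlap in either genotype, and the changes were 2.70 ± 0.35 and 1.88 ± 0.46, with an interaction of -0.82 (-2.07 to 0.43). Trbc1 changed by 2.17 and 1.35. Trac, the constant segment of the alpha chain, was by contrast blunted, with 1.85 and 0.72, and its diets overlapped in Tas1r3-/- mice (3.50 and 11.1 on ND, 9.76, 10.1 and 12.4 on WD). Its interaction was -1.13 (-2.95 to 0.69), and it was named after its values were seen. Trbv13-1, a variable segment that is the only gene past an adjusted p of 0.01 and is named for that reason after its values were seen, changed by 4.76 ± 0.34 and 3.97 ± 0.44. These segments are near-identical copies in part, and how reads were split among them is not given in the sources used here. Beside this, the 9 T cell markers, all tested, had medians of 0.86 and 0.19, and 1 of 9 passed in Tas1r3+/+ mice.

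All 13 mitochondrially encoded protein genes had a higher value on WD in both genotypes, with medians of 1.07 and 1.00, and 9 passed in Tas1r3+/+ mice; this group was formed after its values were seen. mt-Nd3, a subunit of respiratory complex I, ranged from 232.0 to 364.4 on ND and from 576.9 to 1195.0 on WD in Tas1r3+/+ mice. The Tas1r3-/- libraries were at 402.6 and 331.8 on ND and at 727.3, 865.8 and 812.9 on WD. The interaction was -0.34 (-1.28 to 0.59). Without scaling between libraries the medians were 0.61 and 0.59, and all 13 genes still had a higher value on WD in both genotypes, while the counts of diet responses over all genes in Tas1r3+/+ mice became 22 higher and 1296 lower.

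**Figure D2:**
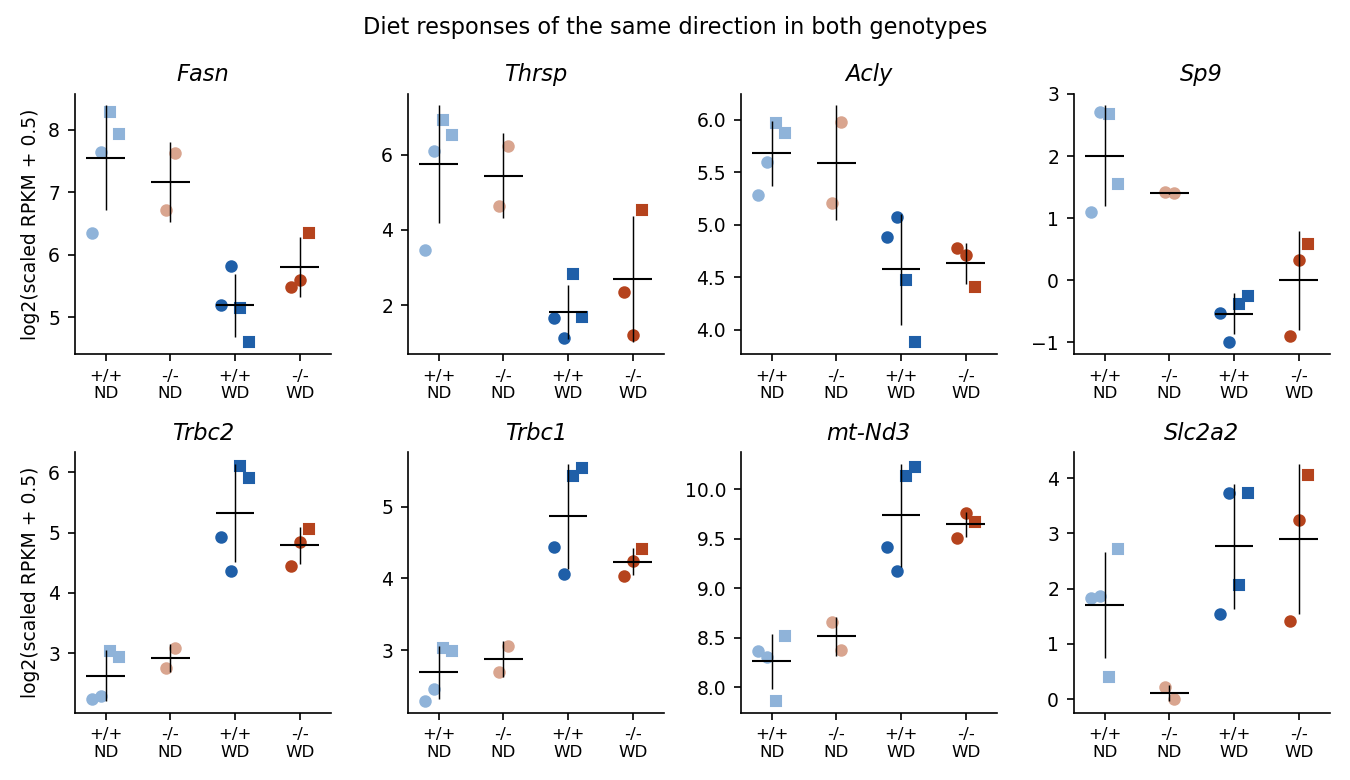
Levels per library as log2(scaled RPKM + 0.5) for 8 genes in the 4 groups (circles, males; squares, females; horizontal lines, means; vertical lines, 1 SD). Fasn, Thrsp, Acly and Sp9 are lower and Trbc2, Trbc1 and mt-Nd3 higher on WD in both genotypes without overlap of diets, while Slc2a2 overlaps in Tas1r3+/+ mice.

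Among genes without extended values, some genes known from myeloid cells had blunted responses, such as Clec7a and Igsf6, while Plek and Scimp, also known from such cells, were kept (1.19 and 0.67, and 1.14 and 0.85). Plek and Scimp were named after their values were seen. Clec7a, the beta-glucan receptor Dectin-1, was at 0.579, 0.693, 0.747 and 0.98 on ND and at 4.12, 1.94, 2.95 and 3.50 on WD in Tas1r3+/+ mice. Clec7a in Tas1r3-/- mice was at 1.06 and 2.15 on ND and at 2.21, 1.19 and 1.09 on WD. The diets did not overlap in Tas1r3+/+ mice and did in Tas1r3-/- mice, where the 2 ND libraries were above all ND libraries of Tas1r3+/+ mice. The changes were 1.51 and -0.07, and the interaction was -1.58 (-2.55 to -0.61, limma p = 0.00385, exact permutation p = 0.00571, adjusted p of 1).

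Fcgr4, an activating receptor for IgG that was just short of 2-fold in Tas1r3+/+ mice and so is in no class, ranged from 1.95 to 3.23 on ND and from 4.02 to 5.92 on WD in Tas1r3+/+ mice. Fcgr4 in Tas1r3-/- mice was at 3.36 and 3.65 on ND and at 3.91, 2.60 and 2.32 on WD. Its changes were 0.97 and -0.24, and its interaction was -1.21 (-1.96 to -0.47). Igsf6, an immunoglobulin-like protein of myeloid cells, changed by 1.28 against 0.16 (interaction -1.12, -1.91 to -0.33).

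The 9 macrophage markers, all tested, had medians of 0.25 in Tas1r3+/+ and -0.35 in Tas1r3-/- mice, and 9 of 9 interactions were negative, with 0 past the rule. Their summed level was 259 to 366 and 358 to 508 on ND and WD in Tas1r3+/+ mice, and 395 to 420 and 412 to 459 in Tas1r3-/- mice. Lyz2 makes up a large part of these sums and holds extended values. Over the 8 other markers the sums were 125 to 215 and 127 to 237 in Tas1r3+/+ mice and 188 to 217 and 90.6 to 171 in Tas1r3-/- mice, and the genotypes overlapped on ND. The part of macrophage content in these interactions was not tested.

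Of 20 interferon-stimulated genes, 13 had a higher value on WD in Tas1r3+/+ mice and 6 in Tas1r3-/- mice (medians 0.37 and -0.13), and 19 interactions were negative, again with 0 past the rule. Ifi44, the only one that passed in Tas1r3+/+ mice, had 1.12 there and -0.08 in Tas1r3-/- mice. Both ND-fed Tas1r3-/- libraries (0.647 and 0.994 scaled RPKM) lay above every ND-fed Tas1r3+/+ library (0.15 to 0.351), all at low levels. Igtp, an immunity-related GTPase, had 0.73 and -0.74 and passed in neither. Trex1, an exonuclease that degrades cytosolic DNA, had 0.43 and -0.88, with an interaction of -1.31 (-2.20 to -0.42).

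Other blunted responses had wider intervals. Mfsd2a, a transporter of lysophospholipids, fell by 1.61 in Tas1r3+/+ mice and had 0.05 in Tas1r3-/- mice, with an interaction of 1.66 (-0.11 to 3.43). Snhg3, a small nucleolar RNA host gene, had 1.48 and 0.49, with an interaction of -0.98 (-2.50 to 0.54). For both, the interval included equal responses.

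Among responses in the other direction, B4galnt4, a glycosyltransferase, was at 14, 13.7, 19.3 and 15.5 on ND and at 4.78, 7.14, 4.56 and 7.70 on WD in Tas1r3+/+ mice. In Tas1r3-/- mice it was at 4.37 and 8.80 on ND and at 5.64, 8.42 and 13.5 on WD. Both ND levels of Tas1r3-/- mice lay below every ND-fed Tas1r3+/+ library, and the interaction was 1.77 (0.75 to 2.78). Cyp4b1, a cytochrome P450, was likewise lower in both ND-fed Tas1r3-/- libraries (7.32 and 11.5) than in any ND-fed Tas1r3+/+ library (16.4 to 40.3), with -1.32 in Tas1r3+/+ mice and 0.50 in Tas1r3-/- mice.

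Tha1, a threonine aldolase, differed from these. It ranged from 9.41 to 30.0 on ND and from 3.07 to 8.63 on WD in Tas1r3+/+ mice. In Tas1r3-/- mice it was at 9.89 and 4.75 on ND and at 9.06, 11 and 12.0 on WD, so that the genotypes did not overlap on WD and did on ND. The interaction was 2.23 (0.77 to 3.68). Fam183b had -0.41 and 2.11, and Amy1, which encodes an amylase, -0.45 and 1.32, with levels below 4 scaled RPKM throughout.

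The diet on which the genotypes differed was not the same for the 2 kinds of genes. Of the 39 genes without extended values that passed the unadjusted interaction rule, 30 had the larger genotype difference on ND, where Tas1r3-/- mice had 2 libraries, and 9 on WD. Of the 20 genes with extended values that passed, 2 had it on ND and 18 on WD. These 20 were drawn from 70 such genes (28.6%), and the 39 from 18972 (0.206%). Of the 39, 8 were immunoglobulin variable segments, all negative, and 13 had no descriptive symbol. Over all 217 immunoglobulin variable segments tested the median change was 0.67 in Tas1r3+/+ and -0.33 in Tas1r3-/- mice.

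**Figure D3:**
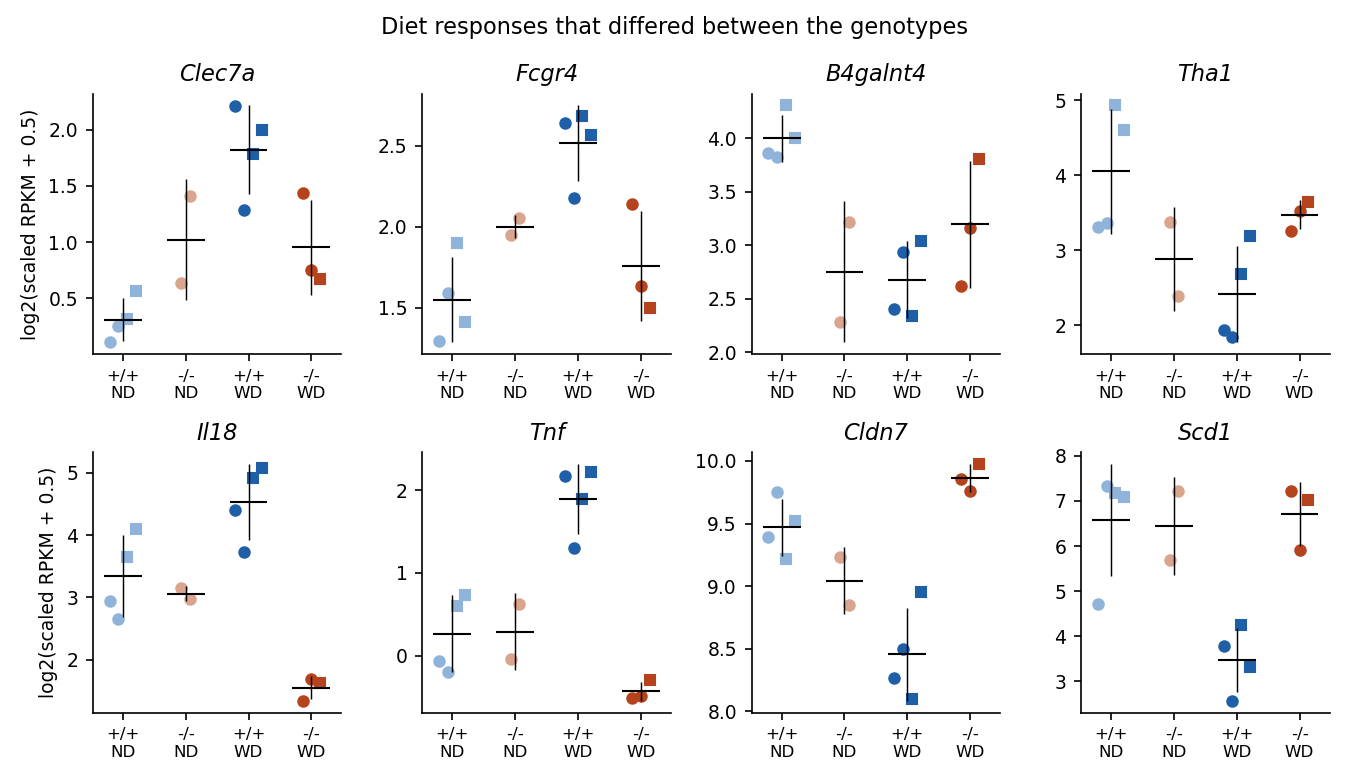
Levels per library as log2(scaled RPKM + 0.5) for 8 genes (circles, males; squares, females; horizontal lines, means; vertical lines, 1 SD), without extended values in the upper row and with them in the lower row. In the upper row Clec7a, Fcgr4 and B4galnt4 differ between genotypes on ND without overlap, and in the lower row the genotypes do not overlap on WD for any of the 4 genes.

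Of the 8 negative interactions past the rule among genes with extended values, 4 were of the list of inflammatory cytokines and chemokines, which holds 5 of the 70 genes with such values. Il18, a cytokine of the interleukin-1 family, was at 7.23, 5.79, 12.0 and 16.7 on ND and at 20.7, 12.8, 29.8 and 33.5 on WD in Tas1r3+/+ mice. In Tas1r3-/- mice it was at 8.39 and 7.36 on ND and at 2.03, 2.74 and 2.59 on WD. The diets overlapped in Tas1r3+/+ mice and not in Tas1r3-/- mice, and the interaction was -2.71 (-3.91 to -1.51). Without the transcripts that hold its 2 extended values it was -2.08.

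Tnf, the tumour necrosis factor, had changes of 1.63 and -0.73 and an interaction of -2.35 (-3.40 to -1.31). Il1b had 1.20 and -0.50, and Ccl2, a chemokine that recruits monocytes, had 1.62 and -0.76. For Tnf, Il1b and Ccl2 no transcript that passed the filter remained once those with extended values were left out. The list of inflammatory cytokines and chemokines had a median interaction of -0.92 over 14 tested genes of 21, and of -0.36 over the 9 without extended values, of which 0 passed the interaction rule.

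Of the 12 positive ones, 4 were of the tight junction list, which holds 4 of the 70. Cldn7, a tight junction protein, was at 672.5, 860.5, 593.6 and 733.3 on ND and at 308.0, 361.6, 273.5 and 495.9 on WD in Tas1r3+/+ mice. Its Tas1r3-/- levels were 601.4 and 461.9 on ND and 924.2, 866.8 and 1007.2 on WD. The diets did not overlap in either genotype and went in opposite directions, with an interaction of 1.83 (1.02 to 2.64) and 9 extended values. Tight junction genes had medians of -0.55 and -0.06, with 4 of 17 past the interaction rule (Tjp1, Tjp3, Ocln and Cldn7), and all 4 held extended values. The 13 others had a median interaction of 0.23 and 0 past the rule.

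Reg3g, an antimicrobial lectin, changed by -1.77 and had 1.16 in Tas1r3-/- mice, with an interaction of 2.93 (1.05 to 4.81) and 2 extended values in a WD-fed Tas1r3-/- male. Its family members without extended values, Reg3a and Reg3b, had interactions of 1.12 and 1.52, which missed even an unadjusted 0.05. Muc2, the main secreted mucin, had -1.40 and 0.39, and its interaction was 1.78 with its extended values and 1.77 without those transcripts. Cpt2, a mitochondrial enzyme of fatty acid oxidation, had an interaction of 1.72, which became -0.27 without its transcripts with extended values. Nfkb1, a subunit of NF-kB, had 0.41 and -0.86, and its interaction of -1.27 became -1.14.

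Of the 29 genes that the study names, 27 were tested and 21 hold extended values. They were named on these samples and are not independent evidence of a direction. Of the 27, 5 passed the interaction rule with a positive and 6 with a negative sign, and of the 6 without extended values 0 passed.

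**Figure D4:**
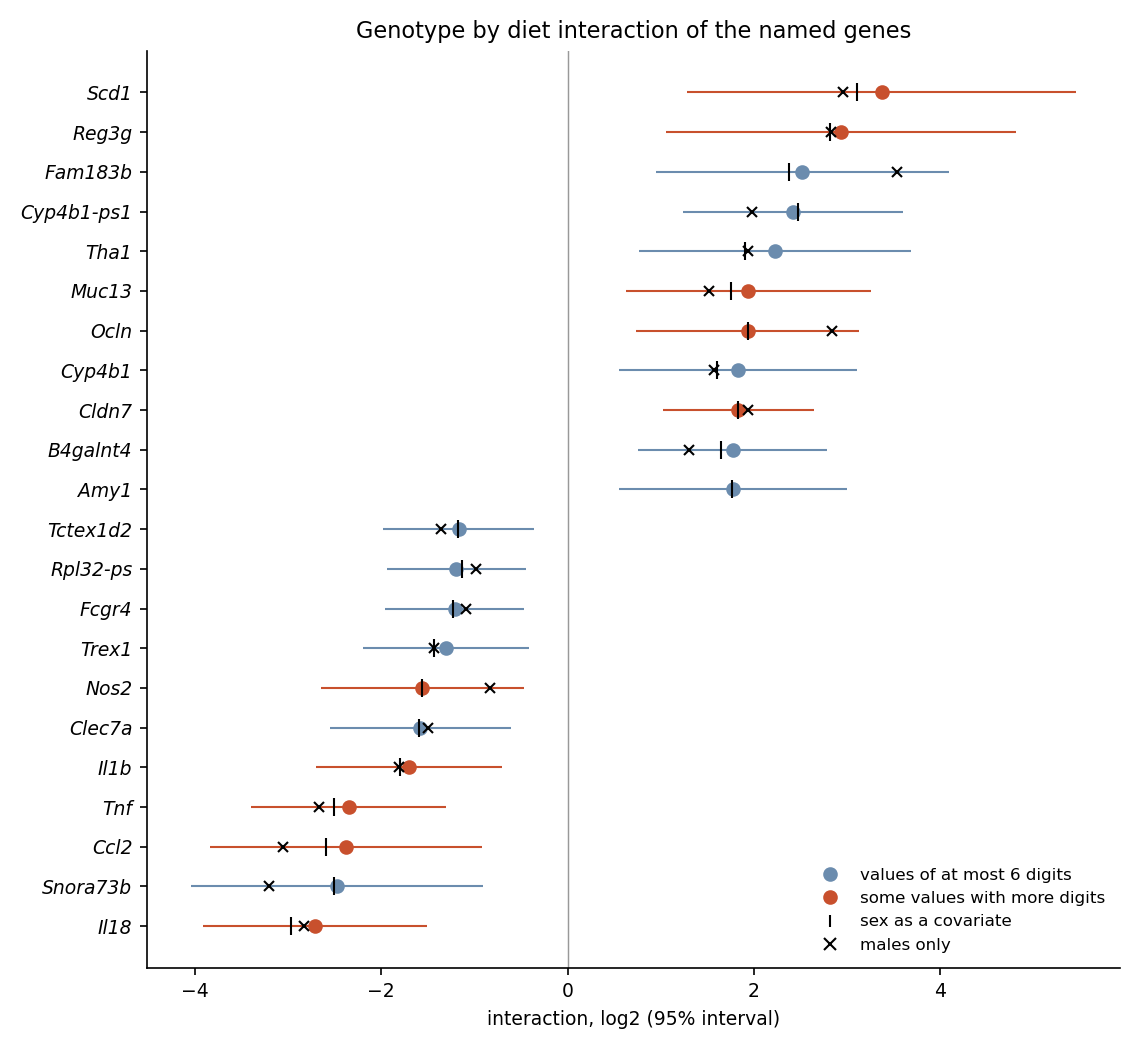
Genotype by diet interaction (log2) with its 95% interval for the 22 genes named by their interaction, with the estimates with sex as a covariate (vertical ticks) and in males only (crosses; Amy1 was not tested there). The main estimates run from 3.37 for Scd1 to -2.71 for Il18. The alternatives shown keep their sign, which for sex as a covariate was a condition for naming the genes. The males-only fit reuses libraries of the main fit.

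Sex was unbalanced, since ND-fed Tas1r3-/- mice are represented by males alone. With sex as a covariate all 59 genes past the unadjusted rule kept limma p under 0.05, and in males only 57 of the 57 tested had the same sign. The 59 were chosen on these same libraries, so such agreement was favoured in advance. Without an ND-fed Tas1r3-/- female, a sex effect that differs between the groups cannot be told apart from the interaction. At the rule itself, 46 of the 59 passed again with sex as a covariate and 22 of the 59 in males only. Leaving out 1 library moved the number of positive interactions from 19 (without ND-fed Tas1r3-/- male 2) to 63 (without WD-fed Tas1r3-/- male 1), and of negative ones from 22 to 49 for the same libraries.

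Of the other lists, the mTORC1 components had -0.18 and -0.08 with a median interaction of 0.00, mitochondrial fatty acid oxidation had -0.04 and -0.12, and the circadian clock 0.25 and 0.35. For these 3 lists 1 gene passed the interaction rule, Cpt2. Medians in Tas1r3+/+ and Tas1r3-/- mice were -0.12 and 0.31 for the ileal bile acid axis, -0.33 and -0.00 for NF-kB subunits and inhibitors, -0.55 and -0.21 for PPARG targets and -0.60 and -0.28 for goblet cell products. Sugar handling had -0.13 and 0.26 and 13 of 15 interactions positive, but 0 passed. Slc2a2, the basolateral glucose and fructose transporter GLUT2, was at 0.668 and 0.51 on ND and at 2.16, 8.97 and 16.1 on WD in Tas1r3-/- mice, and changed by 2.78 ± 0.85. In Tas1r3+/+ mice it ranged from 0.817 to 6.04 and from 2.40 to 12.8, and the interaction was 1.72 (-0.60 to 4.04).

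**Figure D5:**
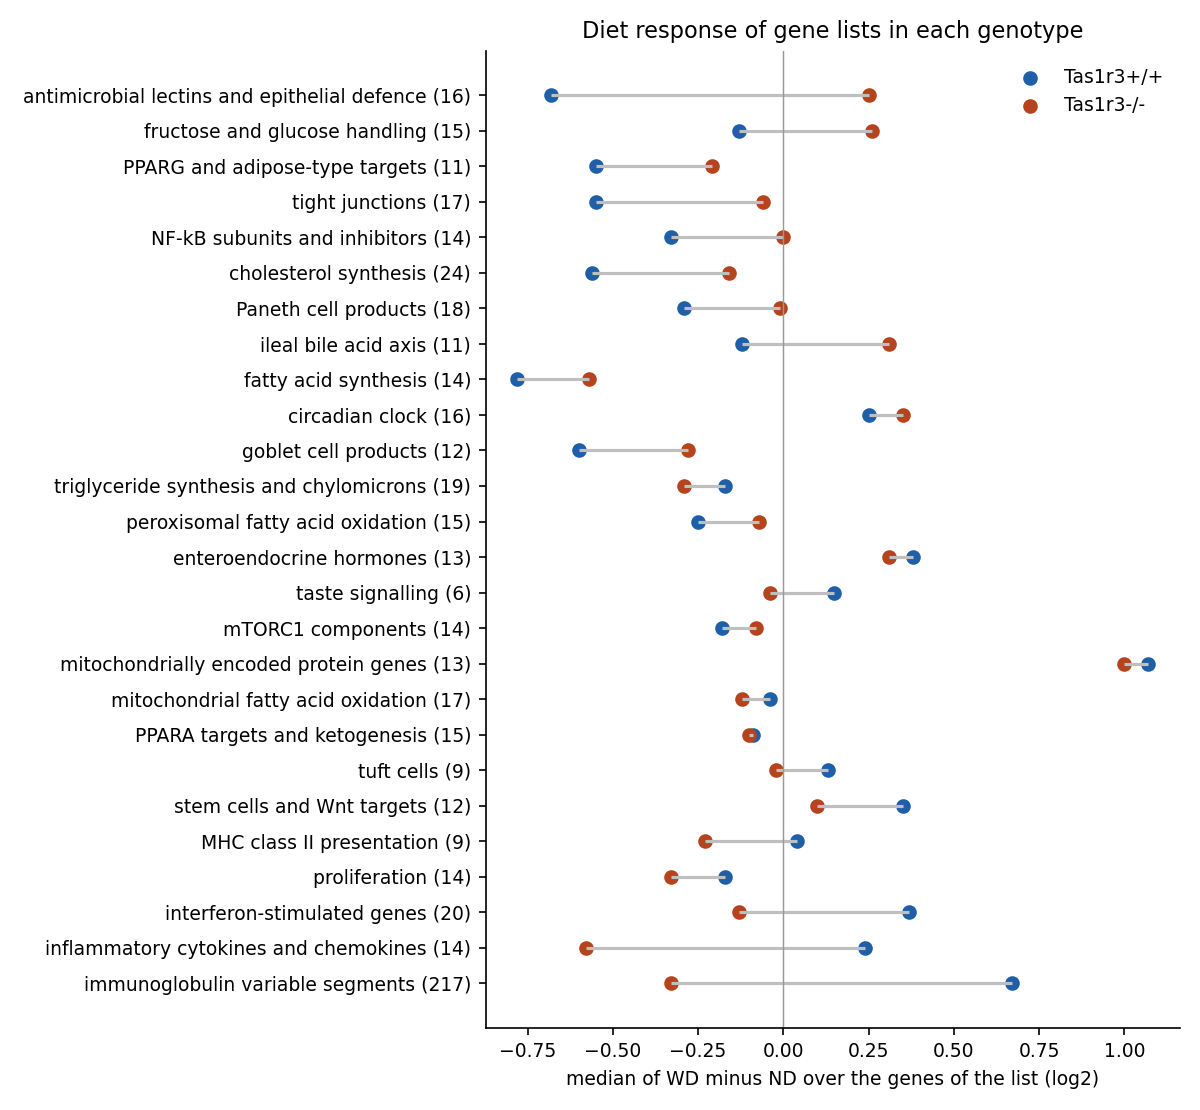
Median change from ND to WD (log2) of each gene list in Tas1r3+/+ (blue) and Tas1r3-/- mice (red), with the number of tested genes in brackets. Fatty acid synthesis (-0.78 and -0.57) and mitochondrially encoded genes (1.07 and 1.00) lie on the same side of 0 in both. Inflammatory cytokines (0.24 and -0.58) and antimicrobial genes (-0.68 and 0.25) do not. Without genes with extended values the cytokine medians are -0.18 and -0.31. The antimicrobial medians are then unchanged, and 0 of those 14 genes passed the interaction rule.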

How the data were processed

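RNA from terminal ileum was sequenced by the authors, mapped to GRCm38 (mm10) with STAR in Partek Flow and quantified on Ensembl transcripts. The deposited values are RPKM per transcript, made by the authors although the table is named as counts, so no count test was used. They were summed to genes here, and 19042 of 23299 genes that reached an RPKM of 1 in 2 or more libraries were kept. Among genes with 1 transcript, 87.3% to 89.6% of values between 0.5 and 20 reads were whole multiples (within 0.05) of a step of 0.0693 to 0.139 RPKM for 1 read on 1 kb, which sets the precision of low levels; intervals that need depth are not given. Scaling used TMM-type factors (trimmed log ratios), and log2(scaled RPKM + 0.5) was fitted with limma 3.58.1 with a mean-variance trend over all 4 groups. Fold changes on this scale understate those of low genes. The fit was also run on simulated data with independent noise and a known interaction, which tests the computation and not the spread of these libraries.

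The study's thresholds were an adjusted p under 0.01 and 2-fold. Since fewer than 20 genes passed at 0.05 in Tas1r3+/+ mice, classes used an unadjusted p under 0.01 and 2-fold. The two-sided exact permutation tests had 525 relabellings for the interaction, 70 for Tas1r3+/+ and 10 for Tas1r3-/- diet responses, where p cannot go below 0.1. Named genes were the largest changes with separated groups in each class (up to 5 per direction), the largest interactions (up to 6, or 5 with extended values) that kept p under 0.05 with sex as a covariate, and members of the lists; gene models without a descriptive symbol were only counted. Members and lists were chosen with earlier results of these data known. P-values measure the spread between labelled samples. Some genes that the rule would name are not reported here.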

Additional observations from a re-analysis of the deposited data

Results flagged for a closer look

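In groups of 4, the highest or lowest library stood apart from the others in 10 of 106 groups examined. Chance gives about 1 in 20 for independent groups. These groups share libraries, and many of the genes were named by their values, so no excess can be read from the count. Values are scaled RPKM. In ND-fed Tas1r3+/+ male 1, Scd1 was 25.9 (others 136 to 161), Plin1 was 2.03 (others 12.0 to 15.6) and the adipocyte marker sum was 36.2 (others 213 to 262), and Mrap was 0.697 in WD-fed female 1 (others 0.158 to 0.21). In WD-fed Tas1r3+/+ female 2 the enterocyte marker sum was 1.76e+04 (others 4.17e+03 to 5.25e+03) and the B cell marker sum 51.9 (others 21.6 to 24.8). Among genes named by their interaction, Amy1 was 2.25 in ND-fed female 2 (others 0.664 to 0.788), Snora73b was 0.642 in the same library (others at most 0.00019), Fam183b was 2.69 in ND-fed male 2 (others 1.40 to 1.52) and Trex1 was 4.55 in WD-fed male 2 (others 7.92 to 8.12), all Tas1r3+/+. The causes were not tested.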

How the results depend on the processing

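The absence of interaction calls at an adjusted p under 0.01 held under every alternative run, and 7 genes passed at 0.05 with all 16 columns taken as labelled. For the unadjusted rule, positive interactions numbered 82 with all 16 columns, 17 with a mean RPKM of at least 5, 17 without genes and 19 without transcripts with extended digits; negative ones numbered 99 with all 16 columns and 15 with the mean filter. Leaving out 1 library gave 19 to 63 and 22 to 49.

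Diet responses in Tas1r3+/+ mice at the unadjusted rule numbered 22 higher and 1296 lower without scaling, 313 lower in males only and 56 lower with the mean filter; leaving out 1 library gave 94 (WD male 1) to 267 (WD female 2) lower. At adjusted p under 0.01 they numbered 33 with all 16 columns, 3 with the replicate block, 0 in males, 539 without scaling and 4 with sex, and 1 to 3 on leaving out a library. At 0.05 they numbered 169, 67, 0, 1297 and 70 in that order, 45 with the mean filter, 7 without genes and 11 without transcripts with extended digits, 5 without a filter and 6 with a pseudocount of 0.1, and 1 to 40 on leaving out a library. In Tas1r3-/- mice the unadjusted rule gave 135 higher and 127 lower with all 16 columns, 94 and 111 with the replicate block, 88 and 231 in males, 12 and 397 without scaling, 76 and 90 with sex, and 19 lower with the mean filter; leaving out a library gave 38 to 84 higher and 32 to 142 lower. Adjusted p under 0.01 gave 16 with all 16 columns, 1 with the mean filter and 1 with upper quartile scaling, and 0.05 gave 99, 0 with the block, 0 in males and 3 without scaling; leaving out a library gave 0 to 1 and 0 to 2.

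The share kept was 45.3% with all 16 columns, 64.1% in males, 63.5% with the mean filter, 75.6% without scaling, 72.4% and 28.0% with class limits of 0.25 and 0.75, and 100% and 88.9% for genes chosen at adjusted p under 0.01 and 0.05. Leaving out a library gave 40.8% (WD-fed Tas1r3+/+ female 2) to 66.0% (the WD-fed Tas1r3-/- female mean).

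Median interactions of lists moved in males only to -0.20 (fatty acid synthesis), -1.50 (inflammatory), -0.84 (MHC class II), -0.38 (tuft cells), -0.32 (circadian clock), -0.05 (genes the study names) and 0.05 (B cell). Without genes or transcripts with extended digits they were -0.39 and -0.39 (Paneth cell products), -0.36 and -0.49 (inflammatory) and -0.30 and -0.27 (genes the study names). With the mean filter they were -0.44 (tuft cells), 0.66 (genes the study names), 0.15 (B cell) and -0.83 (plasma cell), and genes the study names had 0.23 with all 16 columns. Leaving out a library gave 0.02 to 0.35 (enteroendocrine hormones), -0.04 to 0.52 (fatty acid synthesis), -1.19 to -0.47 (inflammatory), -0.08 to 0.12 (mTORC1), -0.42 to 0.90 (enterocyte), -0.35 to 0.28 (plasma cell), -0.34 to 0.37 (peroxisomal oxidation), -0.04 to 0.38 (genes the study names) and -0.09 to 0.66 (tight junctions). The causes were not tested. Of 635 values for the 23 named genes past an interaction p of 0.01, 515 stayed past it, 120 did not, and 0 changed sign. Same-numbered samples had deviations correlated from -0.15 to 0.57, over 0.1 in 7 of 14 pairs, so the numbers were not taken to pair the samples, and the replicate block gave 38 positive and 42 negative interactions. Levels below 1 RPKM, as for Amy1, Ccl2 and Tnf, rest on few reads per library.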
